A study of Mus musculus with 9 samples.

Results

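The 7 genes described here encode the activating limb of the circadian clock, Arntl (also named Bmal1), Clock and Npas2, and the nuclear receptors that control it, Nr1d1 and Nr1d2 (REV-ERB alpha and beta) and Rora and Rorb (ROR alpha and beta). They were taken by symbol from a table of read counts for 47729 Ensembl genes, and 7 of 7 were found. RNA came from C2C12 cells, an established mouse myoblast line that fuses into myotubes once fetal bovine serum is exchanged for horse serum. The cells called WT had received Cas9 with a guide RNA that has no target, and the cells called Per1KO and Per2KO had Per1 or Per2 disrupted by CRISPR-Cas9. Each population gave 1 library before differentiation (day 0), 1 on day 3 and 1 on day 5, which makes 9 libraries. Whether a knockout population is 1 clone or a pool, the hour of harvest and any synchronisation of the clock are not given in the sources used here.

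ARNTL pairs with CLOCK or its relative NPAS2, and the pair binds E-box sequences to switch on clock and output genes, among them the Per and Cry repressors that later block the pair. The same pair drives Nr1d1 and Nr1d2. REV-ERB receptors in turn compete with ROR receptors for ROR elements in genes such as Arntl, where REV-ERBs repress through the NCOR1 and HDAC3 corepressor complex and RORs activate. In skeletal muscle ARNTL and the REV-ERBs are known as regulators of myogenesis and of metabolism.

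The 3 WT libraries held 5020385 to 6773320 counts each and the 6 knockout libraries 41997763 to 48051824, a mean 7.82 times as high. The titles of the WT libraries alone carry a sequencing lane, so depth or batch and genotype cannot be told apart. A count of 0 allows up to 3 counts, or 0.443 to 0.598 CPM (the depth-scaled count) in WT and 0.0624 to 0.0714 in the knockouts. Per1 RNA stood at 35.5, 33.7 and 30.9 CPM in WT on days 0, 3 and 5 and at 20.8, 32.4 and 28.9 CPM in Per1KO. Per2 RNA stood at 9.73, 11.5 and 20.4 CPM in WT and at 3.50, 9.12 and 8.37 CPM in Per2KO. Counts over a whole gene do not read a guide-directed edit, so the genotypes rest on the labels. The tissue entry of the labels reads whole muscle, and the series describes cell culture: all 6 myoblast markers were present in every population, and the summed CPM of 6 myotube markers on days 0, 3 and 5 was 625, 16592 and 18272 in WT, 33.5, 6883 and 11416 in Per1KO and 15.7, 6213 and 8839 in Per2KO. The sums over 4 markers each of endothelium, blood and adipocytes reached at most 3.62, 2.19 and 0.878 CPM. The sum over 5 neuronal markers was 53.3 to 128 CPM, nearly all of it Map2. The sum over 3 fibroblast markers that C2C12 cells also express was 718, 2279 and 4283 CPM in WT, 77.7, 902 and 951 CPM in Per1KO and 94.8, 911 and 1126 CPM in Per2KO. In these bulk samples, fewer cells of a type and less RNA per cell cannot be told apart.

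Levels below are CPM with library sizes scaled by TMM, edgeR's trimmed-mean normalisation, and a day series is given in the order day 0, day 3, day 5. Per kilobase of exon, Nr1d1 stood highest at 15.1 to 29.4 CPM per kb over the 9 libraries, followed by Nr1d2 at 11.0 to 19.2, Clock at 7.81 to 9.80 and Arntl at 1.73 to 5.05. Rorb followed at 0.594 to 1.96 CPM per kb, then Rora at 0.0790 to 1.06 and Npas2 at 0.123 to 0.570. The ranges of Nr1d2, Clock and Arntl did not touch each other, whereas Nr1d1 overlapped Nr1d2, Arntl overlapped Rorb, and Rora overlapped both Rorb and Npas2. All 7 genes passed the filter of at least 1 CPM in at least 3 libraries.

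**Figure D1:**
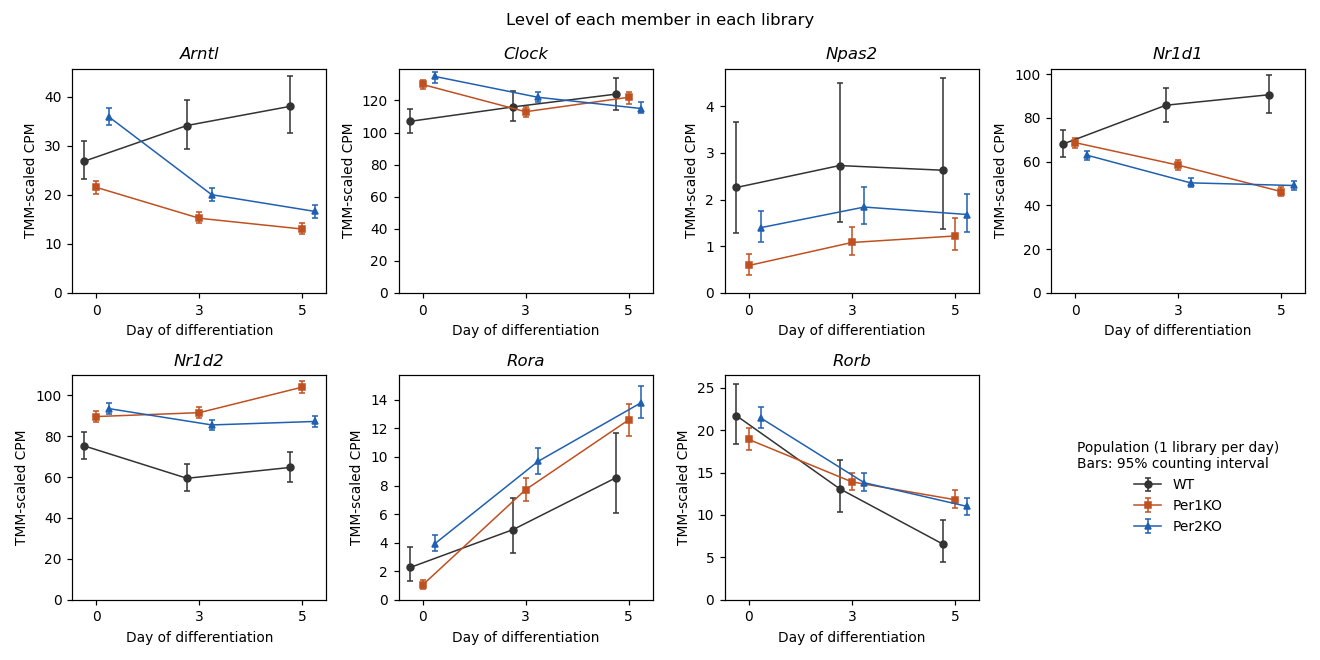
Level of each gene in TMM-scaled CPM (vertical axes, from 0, separate for each gene) against day of differentiation (0, 3, 5) in WT, Per1KO and Per2KO; each point is 1 library and each bar its 95% Clopper-Pearson interval, which covers counting error only. Arntl, Nr1d1 and, by less, Clock read higher on days 3 and 5 than on day 0 in WT and lower in both knockouts. Nr1d2 is higher in the 6 knockout libraries than in the 3 WT libraries, Rora climbs and Rorb declines in every population.

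Genotype was tested with edgeR's quasi-likelihood test in an additive fit of genotype and day, with the 3 days serving as replicates of a genotype, so p-values measure differences between these populations and not between independently made ones. A gene was called at a Benjamini-Hochberg adjusted p under 0.05 over 13324 tested genes. In Per1KO against WT, 3 of the 7 genes were called: Arntl and Npas2 were lower and Nr1d2 was higher. Over all genes 19.3% were called, and for 7 genes that share comes to 1 or 2. In Per2KO against WT, 1 of the 7 was called, Nr1d2, again higher, against 19.9% of all genes. The median log2 fold change of the 7 was 0.07 in Per1KO and 0.10 in Per2KO, beside -0.02 and -0.01 over all genes. Both comparisons use the same 3 WT libraries. Myotube and fibroblast markers also differed between these libraries. The median log2 fold change of 6 myotube markers was -2.10 in Per1KO and -2.48 in Per2KO. Myog was the 1 of these 6 called, lower in both knockouts, a share near that of all genes. Pdgfra and Col1a1 were the 2 of 3 fibroblast markers called, lower in both. The part of these markers in the values below was not tested.

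Arntl, the partner that CLOCK and NPAS2 share, lies at chr7:113207465-113314126 on the plus strand of mouse build GRCm38 (ENSMUSG00000055116). It measured 26.8, 34.1 and 38.0 CPM in WT, 21.5, 15.2 and 13.0 CPM in Per1KO, and 35.9, 20.0 and 16.6 CPM in Per2KO. Per1KO lay below all WT libraries on every day, while Per2KO started at the height of the WT libraries and lay below them on days 3 and 5. The log2 fold change was -1.04 ± 0.28 (SE) for Per1KO (edgeR adjusted p = 0.0363) and -0.53 ± 0.28 for Per2KO (edgeR adjusted p = 0.217). Day by day, the ratio of Per1KO to WT was 0.801 (95% counting interval 0.686 to 0.940), 0.447 (0.381 to 0.528) and 0.343 (0.289 to 0.410). For Per2KO the ratio was 1.34 (1.15 to 1.56) on day 0, 0.588 (0.502 to 0.692) on day 3 and 0.436 (0.369 to 0.519) on day 5. The gap to WT was thus widest on day 5 in both populations. The Per1KO call was lost under 10 of 18 alternatives, among them leaving out WT day 3 (adjusted p = 0.115), WT day 5 (0.132), any Per1KO library (0.103 to 0.161) or Per2KO day 3 (0.0652). Leaving out the WT day 0 library brought Arntl past the threshold in Per2KO, at -0.92 (edgeR adjusted p = 0.00700).

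The Arntl start region is shown because it carries the element through which REV-ERB and ROR receptors act. The RefSeq windows searched run from 250 bases before to 50 after an annotated start, on build GRCm38.p6, on both strands. In the window of the second RefSeq start (113207511), a ROR element lies in the transcribed part, within an annotated exon, and the capitals below mark it. The 30 bases printed, the element with its flanks, lie at chr7:113207527-113207556, plus strand, 5′ to 3′.
Arntl: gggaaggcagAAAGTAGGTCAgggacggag
The ROR element occurs in 0.384% of 32851 such windows. The receptor core motif AGGTCA, which forms its last 6 bases, occurs in 16.3%. A match describes the sequence and does not show binding.

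Clock, the DNA-binding partner and acetyltransferase (chr5:76209868-76304792, minus strand, ENSMUSG00000029238), varied over the 9 libraries from 107 to 135 CPM. It measured 107, 116 and 124 CPM in WT, 130, 113 and 122 CPM in Per1KO, and 135, 122 and 115 CPM in Per2KO. The 9 libraries overlapped across genotypes and across days. The log2 fold change was 0.07 ± 0.12 for Per1KO (edgeR adjusted p = 0.729) and 0.10 ± 0.12 for Per2KO (edgeR adjusted p = 0.601), with both signs turned when day 0 or the WT day 0 library was left out. On day 0 the ratio to WT was 1.21 (95% counting interval 1.12 to 1.31) in Per1KO and 1.26 (1.17 to 1.36) in Per2KO. By day 5 it was 0.983 (0.901 to 1.07) in Per1KO and 0.932 (0.854 to 1.02) in Per2KO. Clock varied less than Arntl, and the ratio of Arntl to Clock per kb followed Arntl. It was 0.456, 0.535 and 0.560 in WT, 0.302, 0.247 and 0.195 in Per1KO, and 0.487, 0.300 and 0.262 in Per2KO. This ratio was chosen after the levels were seen.

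Npas2, the relative that can stand in for CLOCK (chr1:39193731-39363236, plus strand, ENSMUSG00000026077), was scarce. WT libraries held 16, 15 and 12 Npas2 counts, or 2.26, 2.73 and 2.63 CPM. Per1KO held 29, 52 and 51 counts, or 0.587, 1.08 and 1.22 CPM, and Per2KO held 71, 89 and 69 counts, or 1.40, 1.84 and 1.68 CPM. All 6 knockout libraries lay below all 3 WT libraries, with Per1KO the lowest population on every day. The log2 fold change was -1.45 ± 0.29 for Per1KO (edgeR adjusted p = 0.0112) and -0.64 ± 0.27 for Per2KO (edgeR adjusted p = 0.140). At these depths the day 5 ratio to WT was 0.465 (95% counting interval 0.244 to 0.957) for Per1KO and 0.637 (0.343 to 1.29) for Per2KO. The Per2KO ratio was 0.619 (0.356 to 1.14) on day 0 and 0.673 (0.387 to 1.25) on day 3. A difference of Per2KO was thus not detectable on any single day. Npas2 per kb amounted to 0.0603 to 0.0674 of Clock in WT, 0.0130 to 0.0288 in Per1KO and 0.0297 to 0.0432 in Per2KO. The Per1KO call was lost in 4 of 18 alternatives, including the fit without Per1KO day 3 (adjusted p = 0.0514).

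Of the 7 genes, Npas2 and Nr1d2 were the 2 whose knockout libraries did not overlap the WT libraries, Npas2 lower and Nr1d2 higher. The same held for 17.9% of all tested genes.

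Nr1d1 and Nr1d2 encode closely related haem-binding receptors that repress their targets; Nr1d2 was called in both knockouts and Nr1d1 in neither. Nr1d1 (chr11:98767932-98775333, minus strand, ENSMUSG00000020889) measured 68.0, 85.8 and 90.6 CPM in WT, 68.7, 58.4 and 46.3 CPM in Per1KO, and 62.9, 50.3 and 49.1 CPM in Per2KO. On day 0 both knockouts lay close to WT, and on days 3 and 5 both read lower. The ratio to WT was 1.01 (95% counting interval 0.918 to 1.11) on day 0 and 0.511 (0.459 to 0.570) on day 5 in Per1KO, and 0.926 (0.841 to 1.02) and 0.542 (0.488 to 0.604) in Per2KO. Over the 3 days the log2 fold change was -0.51 ± 0.19 for Per1KO (edgeR adjusted p = 0.0913) and -0.60 ± 0.19 for Per2KO (edgeR adjusted p = 0.0562), neither past the threshold. Without the WT day 0 library the adjusted p was 0.00567 and 0.00349, and the DESeq2 Wald test called Per2KO (adjusted p = 0.0232). Nr1d1 shares 263 exonic bases with Thra, a thyroid hormone receptor gene on the opposite strand, and whether counting used strand is not given in the sources used here. Thra itself measured 65.1, 80.3 and 97.2 CPM in WT, 32.3, 71.1 and 69.7 CPM in Per1KO and 34.1, 71.4 and 77.0 CPM in Per2KO. Thra was higher on day 5 than on day 0 in every population, unlike Nr1d1 in the knockouts. On days 3 and 5 Thra was lower in both knockouts than in WT, as Nr1d1 was, and on day 0 Thra was lower too. Any part of Thra reads in the Nr1d1 values was not tested.

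Nr1d2 (chr14:18204054-18239127, minus strand, ENSMUSG00000021775) measured 75.3, 59.4 and 64.7 CPM in WT, 89.6, 91.5 and 104 CPM in Per1KO, and 93.5, 85.5 and 87.2 CPM in Per2KO. The lowest knockout library, at 85.5 CPM, lay above the highest WT library. Nr1d2 was higher by 0.52 ± 0.12 on the log2 scale in Per1KO (edgeR adjusted p = 0.0216) and by 0.42 ± 0.12 in Per2KO (edgeR adjusted p = 0.0444), a fold of 1.43 and 1.34. The size changed little under the alternatives, from 0.44 to 0.64 and from 0.37 to 0.52, but the call was lost in 7 and 11 of 18. In Per1KO, leaving out WT day 5, Per1KO day 3, Per1KO day 5 or Per2KO day 3 ended it (adjusted p from 0.0511 to 0.137), and in Per2KO every library but WT day 0 and Per1KO day 0 did (0.0807 to 0.189). Of its 31-base words, 11.094% also occur in another gene, most in the processed pseudogene AC170187.1, so reads there are uncertain.

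Within a library, where depth and scaling drop out, the ratio of Nr1d2 to Nr1d1 per kb was 0.630, 0.394 and 0.406 in WT. It was 0.743, 0.891 and 1.27 in Per1KO, and 0.845, 0.967 and 1.01 in Per2KO. No knockout library overlapped a WT library, as for Nr1d2 alone, and the share of gene pairs that do so was not counted. Batch does not drop out of this ratio, nor do bases that Nr1d2 shares with AC170187.1 or Nr1d1 with Thra. The ratio was higher on day 5 than on day 0 in both knockouts and lower in WT. Arntl over Nr1d1 per kb, in contrast, stayed at 0.161 to 0.171 in WT and 0.107 to 0.128 in Per1KO, and was 0.233, 0.163 and 0.138 in Per2KO.

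The 2 upstream regions are shown because both genes are known targets of the same activators and their ratio is a main measurement here; the difference between the 2 genes was not tested. Capitals in Nr1d1 mark an E-prime box, a variant E-box that reads CACGTT on the opposite strand and begins 28 bases before the start. Capitals in Nr1d2 mark the core motif AGGTCA, which begins 77 bases before the start. The Nr1d1 stretch runs to the base before its RefSeq start (98775377), and the Nr1d2 stretch ends before the GENCODE gene, at 18239128, short of its RefSeq start (18239106). The stretches lie at chr11:98775378-98775627 and chr14:18239128-18239356, both on the minus strand of GRCm38.p6 and printed 5′ to 3′ from RefSeq.
Nr1d1: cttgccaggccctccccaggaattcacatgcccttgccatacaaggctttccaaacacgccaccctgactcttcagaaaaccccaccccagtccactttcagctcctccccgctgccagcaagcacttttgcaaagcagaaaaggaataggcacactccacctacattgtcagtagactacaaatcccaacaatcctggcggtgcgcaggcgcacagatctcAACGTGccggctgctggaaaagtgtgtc
Nr1d2: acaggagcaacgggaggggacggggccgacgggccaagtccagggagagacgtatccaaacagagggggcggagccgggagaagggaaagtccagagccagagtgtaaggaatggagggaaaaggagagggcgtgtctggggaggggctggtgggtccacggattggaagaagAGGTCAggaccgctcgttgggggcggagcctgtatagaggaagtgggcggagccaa
CACGTT occurs in 4.68% of all windows and the canonical E-box CACGTG in 7.15%. The 7 genes matched 11 windows in all, in which CACGTG was not found. A Clock window held 1 core motif and a Rorb window 1 CACGTT, and the windows of Npas2 and Rora held none of these letters.

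**Figure D2:**
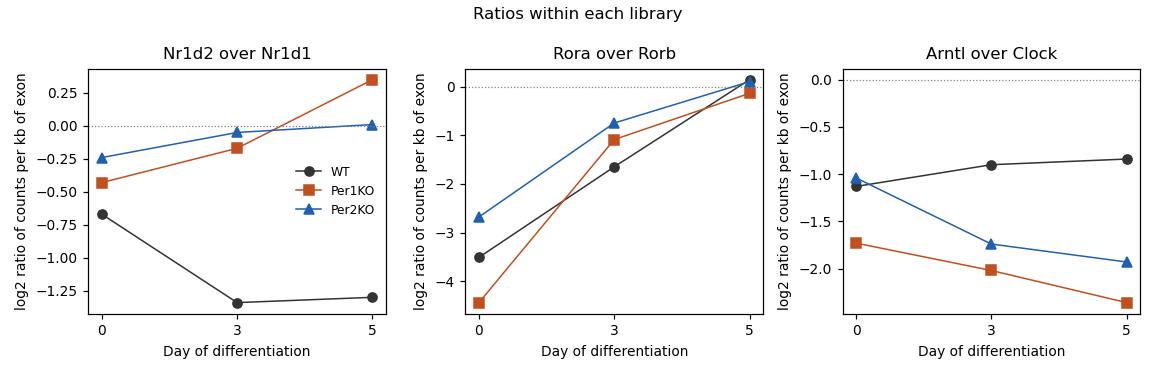
Log2 ratio of counts per kb of exon within each library (vertical axes, separate scales) against day of differentiation for Nr1d2 over Nr1d1, Rora over Rorb and Arntl over Clock; points are single libraries of WT, Per1KO and Per2KO, and the dotted line marks equal levels. Nr1d2 over Nr1d1 lies between -1.34 and -0.67 in WT and between -0.43 and 0.35 in the knockouts, Rora over Rorb nears 0 on day 5 in every population, and Arntl over Clock on days 3 and 5 is lower in the knockouts than in WT.

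The RORs, which activate through the same elements, were called in neither knockout. Rora (chr9:68653786-69388246, plus strand, ENSMUSG00000032238) differed from WT by 0.20 ± 0.39 on the log2 scale in Per1KO (edgeR adjusted p = 0.752), with the sign turned in 4 of 18 alternatives, and by 0.88 ± 0.38 in Per2KO (edgeR adjusted p = 0.146). Rorb (chr19:18930605-19111196, minus strand, ENSMUSG00000036192) differed by 0.18 ± 0.20 (adjusted p = 0.551) and 0.20 ± 0.20 (adjusted p = 0.513), and its sign turned when WT day 5 was left out. Without day 0, or without the Per1KO day 0 library, Rora passed the threshold in Per2KO (edgeR adjusted p = 0.0266 and 0.0234).

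Both RORs instead followed the day. In the tests by day the 3 populations serve as replicates of a day. Their p-values thus do not measure spread between repeated differentiations of the same population. Against day 0, 2 of the 7 genes were called on day 3, with a background of 35.0% of all genes, and the same 2 on day 5, with a background of 46.1%; Rora rose and Rorb fell. Rora measured 2.26, 4.92 and 8.56 CPM in WT, from 16, 27 and 39 counts. It measured 1.03, 7.71 and 12.6 CPM in Per1KO and 3.93, 9.69 and 13.8 CPM in Per2KO. The highest day 0 library lay below the lowest later one, and within every population the order was day 0, day 3, day 5. The rise was 1.79 ± 0.37 on the log2 scale by day 3 (edgeR adjusted p = 0.00875) and 2.45 ± 0.37 by day 5 (edgeR adjusted p = 0.00139), a fold of 5.46. It ranged by population: the day 5 level was 3.79 times that of day 0 in WT (95% counting interval 2.07 to 7.27), 12.2 times in Per1KO (9.14 to 16.6) and 3.52 times in Per2KO (2.99 to 4.16).

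Rorb, best known from retina and brain, measured 21.7, 13.1 and 6.58 CPM in WT, 18.9, 13.9 and 11.8 CPM in Per1KO, and 21.4, 13.8 and 11.0 CPM in Per2KO. The 3 day 0 libraries, at 18.9 to 21.7 CPM, lay above all 6 later ones. Rorb fell by 0.61 ± 0.19 on the log2 scale by day 3 (edgeR adjusted p = 0.0403) and by 1.04 ± 0.19 by day 5 (edgeR adjusted p = 0.00337). Of 5 neuronal markers, Snap25 was at 0 in all 9 libraries, Rbfox3 in 8 of the 9, and Syt1 and Syp reached at most 0.439 and 0.282 CPM, whereas Map2 stood at 52.9 to 127 CPM. The call on day 5 held under all 17 alternatives, as did both Rora calls, whereas the day 3 call was lost in 11 of 17, including leave-outs of each library but WT day 5. Later and day 0 libraries did not overlap for 2 of the 7 genes, Rora and Rorb, and for 32.1% of all genes.

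The ratio of Rora to Rorb per kb, chosen after the levels were seen, went from 0.0880 to 0.318 to 1.10 in WT. It went from 0.0462 to 0.469 to 0.906 in Per1KO and from 0.156 to 0.596 to 1.07 in Per2KO, so the 2 receptor transcripts were near parity on day 5 everywhere. Rora nevertheless remained far below the REV-ERBs: per kb it was 0.0222 of Nr1d1 in WT on day 5, 0.0640 in Per1KO and 0.0663 in Per2KO. Markers moved with the same days: all 6 myotube markers, 2 of 3 fibroblast markers (Dcn and Col1a1) and 1 of 4 endothelial markers (Tek, at 0.550 to 3.60 CPM) were called higher on days 3 and 5. Of 6 myoblast markers, 3 were called higher on day 3 (Des, Itga7 and Chrna1) and 4 on day 5 (those and Myod1). The shares of all genes called were 35.0% and 46.1%. The part of these markers in the Rora and Rorb values was not tested.

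The other 5 genes were not called by day in either direction. For Arntl the log2 change from day 0 was -0.40 ± 0.27 on day 3 (edgeR adjusted p = 0.283) and -0.51 ± 0.27 on day 5 (edgeR adjusted p = 0.164). Leaving out WT moved the day 5 value to -0.92 (adjusted p = 0.00101) and that of Nr1d1 from -0.19 to -0.46 (adjusted p = 0.00668), both then called. Npas2 read 0.53 ± 0.26 on day 5 (adjusted p = 0.125), while Clock and Nr1d2 read -0.04 ± 0.12 and -0.03 ± 0.12. Between day 3 and day 5, 0 of the 7 genes were called, against 1.79% of all genes; Rora differed by 0.66 ± 0.34 (edgeR adjusted p = 0.419) and Rorb by -0.44 ± 0.19 (edgeR adjusted p = 0.349).

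**Figure D3:**
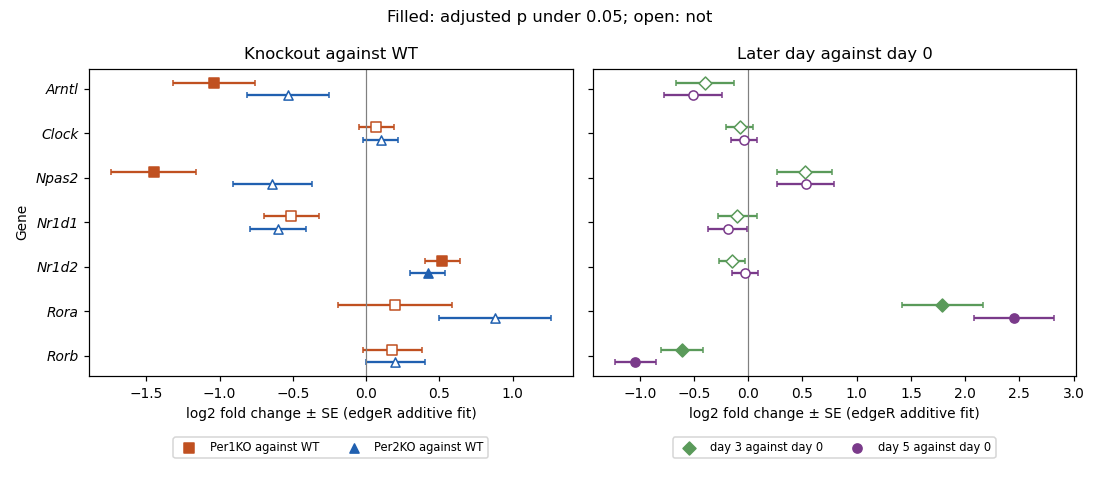
Log2 fold change ± SE (horizontal axes) of each gene from the edgeR additive fit of 9 libraries, for Per1KO and Per2KO against WT (left) and for days 3 and 5 against day 0 (right); filled symbols have an adjusted p under 0.05. Filled on the left are Arntl at -1.04 and Npas2 at -1.45 in Per1KO and Nr1d2 in both knockouts, and filled on the right are Rora and Rorb.

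The additive fit assumes the same course of days in each population, and the members' courses were set side by side to see where that differed. In WT, Arntl on day 5 was 1.42 times its day 0 level (95% counting interval 1.15 to 1.75). It was 0.607 times (0.546 to 0.674) in Per1KO and 0.461 times (0.422 to 0.504) in Per2KO. Nr1d1 behaved alike, at 1.33 times (1.17 to 1.52) in WT, 0.675 times (0.638 to 0.714) in Per1KO and 0.781 times (0.738 to 0.826) in Per2KO. Nr1d2 on day 5 was 0.860 times its day 0 level (0.743 to 0.993) in WT, 1.16 times (1.11 to 1.21) in Per1KO and 0.932 times (0.893 to 0.974) in Per2KO. Clock moved the same way as Arntl and Nr1d1, by less, at 1.15 times (1.03 to 1.29) in WT. It was 0.938 times (0.904 to 0.973) in Per1KO and 0.857 times (0.825 to 0.889) in Per2KO. Thus Arntl, Nr1d1 and, by less, Clock read higher with differentiation in WT and lower in both knockouts. The share of all genes with such a course was not counted.

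**Figure D4:**
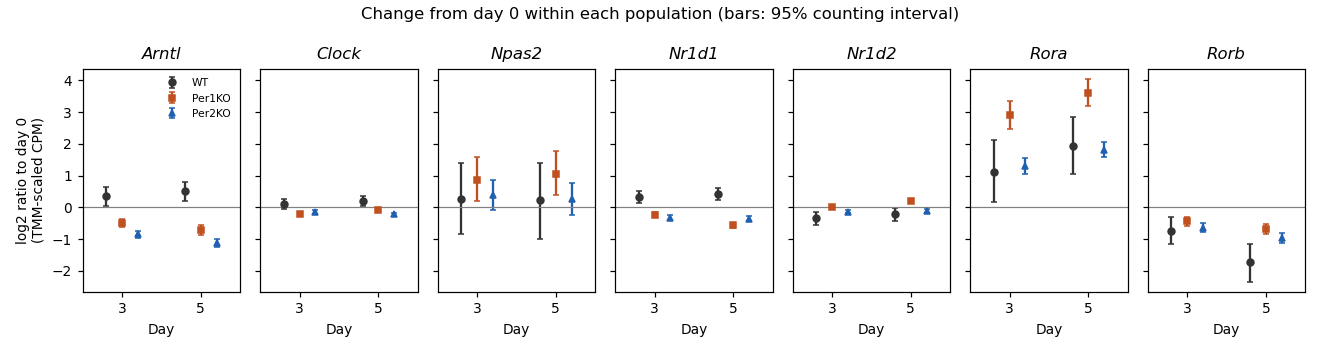
Log2 ratio of TMM-scaled CPM to the day 0 library of the same population (vertical axis, shared) on days 3 and 5 for each gene in WT, Per1KO and Per2KO; each point compares 2 libraries and bars are 95% counting intervals. Arntl, Nr1d1 and, by less, Clock lie above 0 in WT and below 0 in the knockouts. Rora lies above 0 and Rorb below 0 in all 3 populations.

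The difference in course was tested as an interaction of genotype with the later days. In the response of Per1KO against WT, 0 of the 7 genes were called, beside 0.420% of all genes (56, with 2430 at an unadjusted p under 0.05). In the response of Per2KO against WT, 0 of 7 were called, beside 2.42% of all genes (322, with 2844 at an unadjusted p under 0.05). The Arntl response differed from WT by -1.03 ± 0.27 on the log2 scale in Per1KO (edgeR adjusted p = 0.153) and by -1.40 ± 0.27 in Per2KO (edgeR adjusted p = 0.0670). For Nr1d1 the values were -0.77 ± 0.24 (adjusted p = 0.199) and -0.72 ± 0.24 (adjusted p = 0.180). For Clock they were -0.31 ± 0.19 (edgeR adjusted p = 0.444) and -0.34 ± 0.19 (edgeR adjusted p = 0.365). Rora differed by 1.72 ± 0.40 in Per1KO (adjusted p = 0.130) but by 0.03 ± 0.38 in Per2KO (adjusted p = 0.992), in which the course was close to that of WT. Nr1d2 differed by 0.40 ± 0.19 (adjusted p = 0.331) and 0.17 ± 0.19 (adjusted p = 0.652). Of 6 myotube markers, 2 were called higher in the Per1KO response (Myog and Myh3). In the Per2KO response 5 of the 6 were called higher, all but Ckm. The summed CPM of the 6 on day 0 was 625 in WT, 33.5 in Per1KO and 15.7 in Per2KO. On day 5 it was 18272, 11416 and 8839. Both knockouts thus started lower and stayed below WT. Of 3 fibroblast markers, Dcn was called higher in both responses. None of these marker calls held with days 3 and 5 joined. The part of these markers in the courses of the members was not tested. With 2 residual degrees of freedom this test depends on single WT libraries: without WT day 3 or WT day 5, 4 of the 7 genes were called in Per1KO and 2 in Per2KO, Arntl and Nr1d1 in each of these 4 cases. The same fits called 2920 and 4596 of 13324 genes in Per1KO and 3717 and 4851 in Per2KO, so the background rose as well. In these fits a single WT library stands for the later days and fewer residual degrees of freedom remain. Their spread comes from the knockouts alone, so these calls do not measure spread in WT. For Per2KO the DESeq2 Wald test on all 9 libraries also called Arntl (adjusted p = 0.00793), as did the edgeR fit without a filter on low counts (0.0250).

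The 2 knockouts were also compared with each other, at like depth. In Per1KO against Per2KO, 0 of the 7 genes were called, and 0% of all genes; 88 of 13324 had an unadjusted p under 0.05, and DESeq2 called 1 gene. Npas2 differed by -0.80 ± 0.24, Rora by -0.68 ± 0.33 and Arntl by -0.52 ± 0.27 on the log2 scale (edgeR adjusted p = 1.00 for each), Per1KO being the lower in all 3. The gap was widest on day 0: the ratio of Per1KO to Per2KO was 0.421 (95% counting interval 0.263 to 0.657) for Npas2, 0.263 (0.189 to 0.359) for Rora and 0.598 (0.554 to 0.645) for Arntl. By day 5 it was 0.729 (0.497 to 1.06), 0.910 (0.807 to 1.03) and 0.786 (0.701 to 0.882).

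Among 12 clock repressors and output factors, 0 were higher and 3 were lower in each knockout, beside 19.3% (Per1KO) and 19.9% (Per2KO) of all genes called in either direction. In Per1KO these were Nfil3 at -1.77 ± 0.48, a repressor that competes with DBP (edgeR adjusted p = 0.0392), Bhlhe40 at -0.92 ± 0.14, an E-box repressor (adjusted p = 0.00316), and the cryptochrome Cry2 at -0.91 ± 0.21 (adjusted p = 0.0211). In Per2KO they were Bhlhe40 at -1.03 ± 0.14 (edgeR adjusted p = 0.00194), Per2 at -1.02 ± 0.24 (adjusted p = 0.0230) and Cry2 at -0.90 ± 0.21 (adjusted p = 0.0214). Per1 was not called in either knockout, at -0.34 ± 0.22 (edgeR adjusted p = 0.310) in Per1KO and -0.40 ± 0.22 (adjusted p = 0.232) in Per2KO. The list's median log2 fold change was -0.44 in Per1KO and -0.61 in Per2KO. By day 5, 6 of the 12 were higher than on day 0 and 0 lower, near the 46.1% of all genes called, with the highest values for Bhlhe41 at 1.56 ± 0.25, Tef at 1.55 ± 0.16, Bhlhe40 at 1.17 ± 0.14 and Per2 at 0.99 ± 0.24. Hlf was at 0 counts in WT on days 3 and 5.

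None of 15 cofactors of the REV-ERBs and RORs was called in either knockout, beside 19.3% (Per1KO) and 19.9% (Per2KO) of all genes. Their median log2 fold change was 0.03 in Per1KO and 0.15 in Per2KO. On day 5, 4 of the 15 were called, beside 46.1% of all genes. Of these, 1 rose, the coactivator Ncoa1 at 0.96 ± 0.15 on the log2 scale (edgeR adjusted p = 0.00171), and 3 fell: Tbl1x by 0.71 ± 0.11 (adjusted p = 0.00169), Ncoa3 by 0.55 ± 0.14 (adjusted p = 0.0137) and Hdac3 by 0.31 ± 0.10 (adjusted p = 0.0403). TBL1X and HDAC3 belong to the corepressor complex that REV-ERBs recruit. Of 16 kinases, ligases and other modifiers, 1 was higher and 2 were lower in each knockout, with medians of 0.05 and 0.16, a share near the background of 19.3% and 19.9%. The ubiquitin ligase subunit Fbxw7, whose protein targets REV-ERB alpha for degradation, was lower by -0.59 ± 0.14 in Per1KO (edgeR adjusted p = 0.0233) and -0.62 ± 0.14 in Per2KO (adjusted p = 0.0188). The deubiquitinase Usp2 was lower at -0.88 ± 0.17 (adjusted p = 0.0107) and -0.77 ± 0.17 (adjusted p = 0.0180). The kinase Gsk3a was higher in Per1KO at 0.38 ± 0.11 (adjusted p = 0.0435) and the deacetylase Sirt1 in Per2KO at 0.51 ± 0.14 (adjusted p = 0.0386). Fbxw7 and Usp2 rose with the day, by 1.34 ± 0.14 and 3.50 ± 0.18 on day 5.

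Known outputs were called in both directions, beside the same background of 19.3% and 19.9%. The median log2 fold change in Per1KO and Per2KO was -0.24 and -0.36 for the E-box outputs and -0.27 in both for the ROR element outputs. Of 11 tested E-box outputs, 1 was higher in each knockout, Nampt, the NAD salvage enzyme, at 0.53 ± 0.15 in Per1KO (edgeR adjusted p = 0.0423) and 0.51 ± 0.15 in Per2KO (adjusted p = 0.0448), and 1 was lower, Usp2, which is near that background. Of 9 tested outputs of ROR elements, Ccl2, a chemokine, was higher at 2.41 ± 0.48 (edgeR adjusted p = 0.0131) and 2.42 ± 0.49 (adjusted p = 0.0133), and Bcl6, a transcriptional repressor, was lower at -0.88 ± 0.12 (adjusted p = 0.00209) and -0.91 ± 0.12 (adjusted p = 0.00179). Nfil3 was the other lower one in Per1KO, and Lpl, lipoprotein lipase, the other higher one in Per2KO at 1.08 ± 0.23 (adjusted p = 0.0142). Lists were named for known control by these factors and their genes answer to other factors as well. Arntl2, a paralogue of Arntl, was not called by genotype and fell with the day, by 1.08 ± 0.23 on day 5 (edgeR adjusted p = 0.00642).

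As a description over the 9 libraries, which share depth and batch with genotype, log2 CPM of Arntl went with that of Nr1d1 (Pearson r = 0.83, Spearman rho = 0.83). Nr1d2 was opposed by Nr1d1 (r = -0.84, rho = -0.67), Npas2 (r = -0.74, rho = -0.85) and Arntl (r = -0.71, rho = -0.57). Rora went against Rorb (r = -0.68, rho = -0.78). The next pair of members by size of r was Arntl and Npas2 (r = 0.52). Among 9212 protein-coding genes (mean level 10 CPM or more), the courses most like Arntl were those of Slc1a4 (r = 0.94), Sesn2 (r = 0.93) and Srfbp1 (r = 0.93), and the least like were Fmn1 (r = -0.96), Fech (r = -0.95) and Amot (r = -0.95). Nr1d1 was most like Nkain1 (r = 0.98), Angptl4 (r = 0.97) and Csrp2 (r = 0.97), and Nr1d2 most like Etv6 (r = 0.96), Plin4 (r = 0.96) and Washc2 (r = 0.95). Rora was most like Crebl2 (r = 0.99), Srr (r = 0.99) and Osbpl2 (r = 0.98), and Rorb most like Wdr1 (r = 0.98), Elp2 (r = 0.98) and Pola1 (r = 0.97). For Clock the nearest were Ubox5 (r = 0.94), Rbm28 (r = 0.92) and Esf1 (r = 0.92), and for Npas2 they were Mical1 (r = 0.93), Agtpbp1 (r = 0.91) and Ubald1 (r = 0.91).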

How the data were processed

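RNA was sequenced from 9 C2C12 libraries, 1 for each of 3 populations on days 0, 3 and 5. The authors deposited whole-number read counts per Ensembl gene; per the labels' protocols, polyadenylated RNA was prepared with a TruSeq kit and read from 1 end on an Illumina HiSeq. Per the submitters' processing notes, CASAVA 1.8, HISAT2 2.1.0 and the mouse build mm10 were used, with no role or order stated. The counting program, the annotation and the use of strand are not given in the sources used here. A symbol matched 47224 of 47729 genes, and the other 505 held at most 0.0328% of a library.

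From these counts, 13324 genes that reached 1 CPM in 3 or more libraries were kept, scaled by TMM and tested with edgeR 4.0.16 (quasi-likelihood, robust, R 4.3.3; limma 3.58.1), genotype plus day, 4 residual degrees of freedom, Benjamini-Hochberg adjustment over all tested genes. The response test added genotype by later-day terms, with 2 residual degrees of freedom; 3 had been planned in error. Standard errors were derived from each F statistic. Levels carry Clopper-Pearson intervals at 95% and ratios of 2 libraries exact conditional binomial intervals; both cover counting error alone, as the reads carry no molecular identifiers. The tests were checked on simulated counts with a fixed spread between libraries. For unchanged genes these counts had no genotype by day differences, so the check does not show how the tests behave on these libraries. Gene positions, lengths of merged exons and 31-base words came from GENCODE M21 on GRCm38, and start windows from RefSeq on GRCm38.p6.

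The members, lists and tests were chosen with earlier results of these data known. Named genes are the 7 members and, from each list, called genes up to 4 a direction, Per1, Per2 and genes at 0; Pnp matched no symbol and Il6 was too low to test. Another listed gene, named nowhere in the text, is not reported here. The 3 genes of mean CPM at least 10 with the highest Pearson r to each member are named, and for Arntl the 3 with the lowest. Alternatives were DESeq2 1.42.0, its size factors, no filter, knockouts thinned to 5855229 counts, protein-coding genes only, fits of 2 genotypes and leaving out each day, population or library; leaving out single libraries and joining days 3 and 5 were added after seeing the data.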

Additional observations from a re-analysis of the deposited data

Results flagged for a closer look

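The change from day 0 to days 3 and 5 differed between Per2KO and WT for 3 genes of the lists of clock outputs, by the edgeR interaction test over all genes. Hlf, a PAR bZIP output factor, measured 3.38, 0 and 0 CPM in WT (24, 0 and 0 counts) and 0.334, 1.30 and 1.73 CPM in Per2KO (adjusted p = 0.0349). Nfil3 measured 23.7, 44.8 and 62.5 CPM in WT and 36.9, 12.9 and 14.0 CPM in Per2KO (adjusted p = 0.0225). Ccl2 measured 9.73, 5.10 and 3.07 CPM in WT and 17.4, 45.6 and 45.8 CPM in Per2KO (adjusted p = 0.0307). With days 3 and 5 joined into 1 term, 0 genes were called in this comparison, with 1783 at an unadjusted p under 0.05, so none of these 3 calls held there.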

How the results depend on the processing

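Of the members' calls, those of Rora on days 3 and 5 and of Rorb on day 5 held under all 17 alternatives; the calls of Arntl, Npas2 and Nr1d2 by genotype and of Rorb on day 3 did not, as given above, and the cause was not tested. The WT libraries held 12 to 16 Npas2, 16 to 39 Rora and 30 to 154 Rorb counts each, which limits the precision of these genes. The day term already compares populations within days; the labels carry no replicate numbers for another block.

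Members called in Per1KO against WT numbered 0 to 4 over the leave-outs and 0 with 2 genotypes only, where fewer samples were fitted; in Per2KO 0 to 4, 0 and, with DESeq2, 2. On day 3 they numbered 1 to 4 and, thinned, 1; on day 5, 2 to 4. In the response tests they numbered 0 to 4 (Per1KO) and 0 to 2 (Per2KO; DESeq2 and no filter 1 each). Uncalled values turned sign over the leave-outs: Clock from -0.04 to 0.14, Rora from -0.12 to 0.59 and Rorb from -0.06 to 0.39 (Per1KO); Clock from -0.02 to 0.20 and Rorb from -0.01 to 0.38 (Per2KO); Nr1d1 from -0.32 to 0.05 (day 3) and -0.46 to 0.01 (day 5); Clock from -0.16 to 0.05 and Nr1d2 from -0.16 to 0.06 (day 5); the Rora response of Per2KO from -0.08 to 0.15.

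Counts over all genes moved too. Against WT, leave-outs gave 780 to 3602 (Per1KO) and 855 to 3738 (Per2KO), protein-coding genes 1605 and 1719, and 2 genotypes only 1391 and 1263. Day 3 gave 1147 to 7684, day 5 2348 to 8586, and day 5 against day 3 0 (754 at an unadjusted p under 0.05) to 1393, DESeq2 733 and no filter 370. Per1KO against Per2KO gave 1 with DESeq2 and 1 with no filter. The Per1KO response gave 157 to 4596, DESeq2 564, no filter 364, thinned 124 and days joined 0 (1426 unadjusted); the Per2KO response gave 248 to 4851, 859 and 703, and 0 (1783 unadjusted).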

Other observations

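A clock repressor outside the genes named by rule, chosen here after its values were seen, is Ciart, an E-box output that represses the CLOCK and ARNTL pair. It measured 2.96, 6.01 and 11.8 CPM in WT on days 0, 3 and 5. The values were 4.43, 2.52 and 1.63 CPM in Per1KO and 10.0, 2.07 and 1.46 CPM in Per2KO, so, like Arntl and Nr1d1, Ciart was higher on the later days in WT and lower in both knockouts. Its response differed from WT by -2.67 ± 0.74 on the log2 scale in Per1KO (edgeR adjusted p = 0.171) and by -4.08 ± 0.73 in Per2KO (edgeR adjusted p = 0.0604), neither past the threshold. WT values rest on 21, 33 and 54 counts.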
